A study of Arabidopsis thaliana with 6 samples.

Results

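The genes described here are 10 Arabidopsis thaliana loci of the low-oxygen response, most of them of little known function. They are AT3G10040, which encodes the trihelix transcription factor HRA1, the lactate dehydrogenase gene AT4G17260, the pyruvate decarboxylase gene PDC2 (AT5G54960) and 7 loci of low-oxygen induced proteins that are given here by locus. A gene was taken where the platform annotation listed a probe set with that gene and no other, and all 10 listed loci had such a probe set, 1 each, of 13286 genes named in this way on the array. The direction in which a gene differed between the genotypes was no part of that rule, but the members were chosen with earlier results of these data known.

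The study asked about roles of the long non-coding RNA AtR8 in defence. Whole seedlings of the accession Wassilevskija, 10 days old, were either wild type or carried the atr8 mutation, with 3 Affymetrix arrays per genotype that the series calls biological replicates. Every seedling, the wild-type controls included, spent 6 h immersed in water purged with air, which the labels call a hypoxic stress, and 22 h on agar medium to recover. The kind of atr8 allele and the number of mutant lines behind the 3 arrays are not given in the labels, and the level of AtR8 itself and unstressed seedlings were not analysed here. The values therefore compare the genotypes after recovery and hold no measure of induction by the stress.

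When oxygen runs short, plant cells can no longer respire and switch to fermentation. Pyruvate decarboxylase turns pyruvate into acetaldehyde, from which alcohol dehydrogenase makes ethanol, and lactate dehydrogenase makes lactate from pyruvate. The genes of this response are switched on by ethylene response factors of group VII, which are broken down while oxygen is present, and HRA1 is a trihelix protein that binds one of these factors, RAP2.12, and dampens its activity. Many other transcripts that rise in hypoxic Arabidopsis seedlings encode proteins whose role is not settled.

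Each array had linear intensities between 1 and 47944 around a median of 192.9, and the number of arrays limits the precision. Mutant replicates 2 and 3 stood apart in control probe sets: the actin signal at the 3′ end was 28.9 and 19.6 times that at the 5′ end, against 2.13 to 2.66 on the other 4 arrays. For GAPDH this 3′ to 5′ ratio was 1.75 and 1.70 against 0.794 to 0.996, and for ubiquitin 2.10 and 2.27 against 0.717 to 1.02. Across probe sets, log2 intensities correlated at 0.902 to 0.924 within a genotype and at 0.872 to 0.909 between genotypes. Of 12 listed green tissue markers, 3 had a probe set listed with that gene alone (LHCB4.1, LHCB4.2 and RCA). Their summed intensity ran from 51219 to 53316 in the wild type and from 24631 to 32578 in the mutant. All 3 were lower in the mutant without overlap, with log2 differences of -1.06, -1.56 and -0.85. Each had an unadjusted p under 0.05 by limma, beside 14% of all probe sets, and 0 passed after adjustment (adjusted p = 0.0900, 0.0700 and 0.168). Of 11 listed root markers 3 had such a probe set (EXPA7, EXPA18 and GH9C1), with sums of 1165 to 1396 in the wild type and 844 to 1080 in the mutant. These 3 did not move together, with log2 differences of -0.86, -0.62 and 0.03. The genotypes overlapped for EXPA18 and GH9C1, and 0 of the 3 had an unadjusted p under 0.05 by limma. The lowest single value of a marker was 77.2, for EXPA7, and without detection calls or true zeros these levels do not show which tissues were present. In whole seedlings fewer cells of a type and less RNA per cell cannot be told apart. The part of these markers and of the 3′ to 5′ ratios in the results below was not tested.

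The comparison of mutant with wild type showed 1 member that rose in the mutant, AT1G33055, and 0 that fell, at an adjusted p under 0.05 by limma. Over all 22746 probe sets tested, 0.919% passed this threshold, 0.712% higher and 0.207% lower in the mutant. At an unadjusted p under 0.05 there were 3 members, all higher in the mutant (AT1G33055, HRA1 and AT4G24110), against 14% of all probe sets in either direction. Of the 22746 probe sets, 1617 were higher and 1573 lower in the mutant at that unadjusted p. The estimate was higher in the mutant for 8 members and lower for 2, with a median log2 difference of 0.35. Over all probe sets tested it was higher for 11262 and lower for 11484, with a median of -0.01. The 3 mutant arrays all lay on the same side of the 3 wild-type arrays in 5 of the 10 members, above them in 4 and below them in 1. Over all probe sets the genotypes were separated in this way in 22.1%, with the mutant above in 11.2% and below in 11%. An exact permutation test of 3 arrays against 3 cannot give a two-sided p below 0.1.

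**Figure D1:**
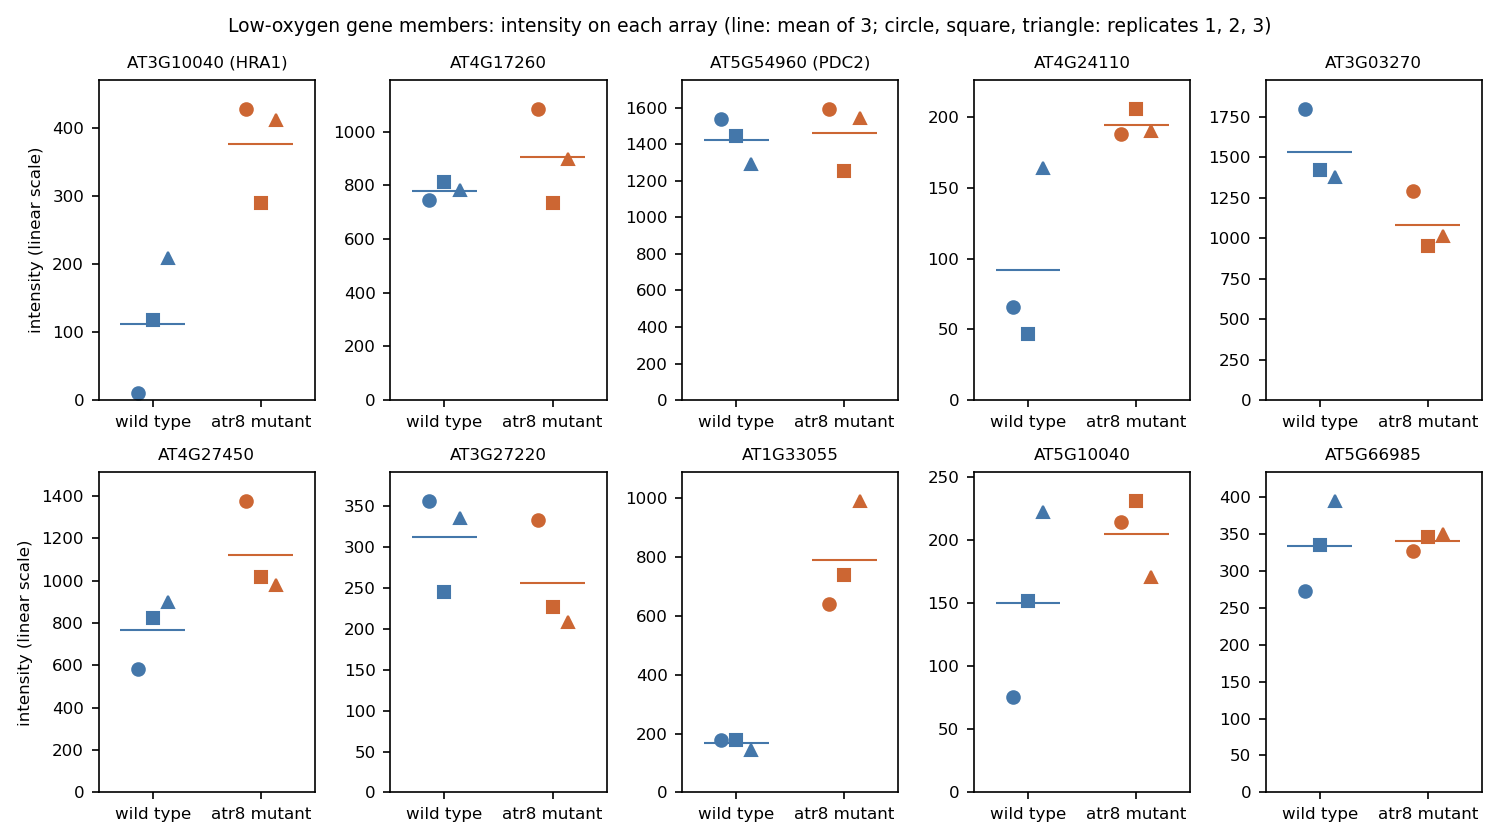
Intensity (linear scale from 0, vertical axis) of the 10 low-oxygen genes on each array, in blue for the wild type and orange for the atr8 mutant, with circles, squares and triangles for replicates 1, 2 and 3 and a line at the mean of 3. AT1G33055 lay between 144 and 179 in the wild type and between 639 and 989 in the mutant, while both genotypes overlapped for PDC2 and AT5G66985.

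Among the members named only by locus, AT1G33055 had the largest difference. Its intensity was 179, 178 and 144 on wild-type replicates 1, 2 and 3, and 639, 738 and 989 on mutant replicates 1, 2 and 3. The lowest mutant array stood well above the highest wild-type array, and the wild-type arrays were close to each other. The mean was 167 ± 19.7 (SD, n = 3) among wild-type arrays and 789 ± 181 among mutant arrays. The transcript rose 4.34-fold, a log2 difference of 2.12 with an SE of 0.24 (95% interval 1.54 to 2.70; adjusted p = 0.0324 by limma). Folds and log2 differences here are of the intensity + 16, which understates changes of dim genes. A ± on a log2 difference is its SE from limma, whereas a ± on a mean is an SD.

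By the size of its p AT1G33055 ranked 77 among the 22746 probe sets, and by the size of its rise 131. Each mutant array taken alone lay above the mean of the wild type, by log2 differences of 1.85, 2.05 and 2.46 for replicates 1, 2 and 3. Of these, 1.85 belonged to replicate 1, the mutant array without the high 3′ to 5′ control ratios. The part of these ratios in the rise was not tested. The threshold was kept without mutant replicate 1 (adjusted p = 0.0419) and lost without wild-type replicate 1, 2 or 3 or mutant replicate 2 or 3, with adjusted p from 0.0971 to 0.135 and a log2 difference from 1.95 to 2.17. Limma called 0 probe sets of the whole table in each of those 5 fits, with 2443 to 2594 at an unadjusted p under 0.05.

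AT5G10040 and AT5G66985, also given by locus, did not pass. AT5G10040 gave an intensity of 75.3, 152 and 222 on the wild-type arrays and 214, 230 and 170 on the mutant arrays. The genotypes overlapped, wild-type replicate 1 being the lowest of all 6 arrays and wild-type replicate 3 the second highest. The log2 difference was 0.51 ± 0.38 (95% interval -0.43 to 1.45, adjusted p = 0.591), and 0.13 without wild-type replicate 1. For AT5G66985 intensities of 273, 335 and 394 in the wild type stood beside 327, 346 and 350 in the mutant. All mutant arrays fell inside the wild-type range, and the log2 difference of 0.04 ± 0.21 had an interval from -0.47 to 0.55 (adjusted p = 0.946).

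HRA1, the attenuator of the response, had the second largest estimate and the widest spread. Its intensity was 10.7, 118 and 208 on wild-type replicates 1, 2 and 3, and 428, 290 and 411 on the mutant replicates. All mutant arrays stood above all wild-type arrays, but the wild type itself ran over a wide range, with replicate 1 at a level below the 16 added before taking logs. The SD of the 3 wild-type log2 values was 1.60, larger than that of 99.0% of all probe sets tested, whose median was 0.33. In the mutant it was 0.30, beside a median of 0.38 over all probe sets.

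The HRA1 estimate of 2.06 ± 0.79 on the log2 scale therefore had an interval from 0.14 to 3.98 (adjusted p = 0.332 by limma). Its size depended on the dim array. Without wild-type replicate 1 the log2 difference was 1.16 (adjusted p = 0.322), and without wild-type replicate 3 it was 2.70 (adjusted p = 0.292). With 1 added in place of 16 it was 2.49, and with 64 added 1.49. Mutant replicate 1 stood 2.26 above the wild-type mean, mutant replicate 2 1.72 and mutant replicate 3 2.20. Replicate 1 is the mutant array without the high 3′ to 5′ control ratios.

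Neither of the fermentation enzyme genes passed the threshold. PDC2 read 1536, 1443 and 1292 in the wild type and 1592, 1252 and 1541 in the mutant. The highest and the lowest of the 6 arrays were both mutant, and the means of 1424 ± 123 and 1462 ± 183 (SD, n = 3) lay closer together than the replicates did. The log2 difference of 0.03 ± 0.20 had an interval from -0.46 to 0.52 (adjusted p = 0.957), so that differences of either sign inside those bounds remain possible.

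The lactate dehydrogenase gene AT4G17260 read 746, 812 and 783 in the wild type and 1085, 733 and 900 in the mutant. Mutant replicates 1 and 3 lay above the wild-type range and mutant replicate 2 below it. The wild-type arrays were tightly grouped, with a log2 SD of 0.06, smaller than in all but 5.14% of probe sets, and the mutant arrays were spread more widely, with a log2 SD of 0.28. The log2 difference was 0.19 ± 0.22 (95% interval -0.33 to 0.72, adjusted p = 0.723). It was 0.06 without mutant replicate 1 and 0.47 on mutant replicate 1 alone.

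The other 4 loci, all of low-oxygen induced proteins, went in both directions and none passed the threshold. AT4G24110 read 65.5, 47.0 and 164 in the wild type and 188, 205 and 190 in the mutant. The mutant arrays were all higher and lay within a narrow band, with a log2 SD of 0.06 that 3.35% of probe sets undercut, whereas the wild type varied with a log2 SD of 0.79. The log2 difference was 1.11 ± 0.41, a 2.16-fold higher estimate in the mutant (95% interval 0.11 to 2.11, adjusted p = 0.317). It was 0.80 without wild-type replicate 2 and 1.55 without wild-type replicate 3, with adjusted p of 0.524 and 0.129, and the single mutant arrays stood 1.07, 1.18 and 1.08 above the wild-type mean.

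AT4G27450 read 585, 824 and 899 in the wild type and 1375, 1019 and 978 in the mutant. The groups did not overlap, although mutant replicate 3 was only slightly above wild-type replicate 3. The log2 difference was 0.54 ± 0.26 (95% interval -0.09 to 1.18, adjusted p = 0.413). It was larger on mutant replicate 1 (0.85) than on mutant replicates 2 and 3 (0.42 and 0.36), and 0.36 without wild-type replicate 1.

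AT3G03270 was the member whose mutant arrays all lay below the wild type. It read 1799, 1421 and 1377 in the wild type and 1290, 952 and 1014 in the mutant. The lowest wild-type array and the highest mutant array were close together. The log2 difference was -0.49 ± 0.22 (95% interval -1.04 to 0.05, adjusted p = 0.392). It was -0.24 on mutant replicate 1 but -0.67 and -0.58 on mutant replicates 2 and 3, the arrays with the high 3′ to 5′ control ratios.

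AT3G27220 differed in sign between these arrays. It read 356, 245 and 336 in the wild type and 333, 227 and 208 in the mutant. Mutant replicate 1 lay inside the wild-type range and mutant replicates 2 and 3 below it, with log2 distances from the wild-type mean of 0.11, -0.42 and -0.53. The log2 difference over all arrays was -0.28 ± 0.27 (95% interval -0.94 to 0.37, adjusted p = 0.674).

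**Figure D2:**
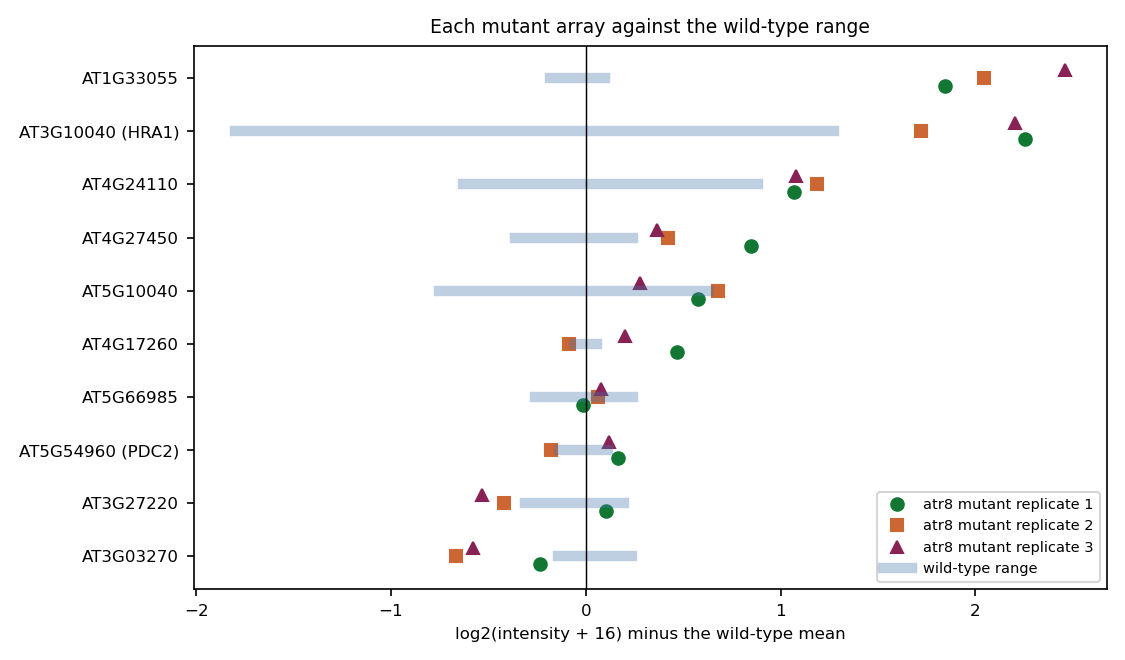
Position of each mutant array (green circle, orange square and purple triangle for replicates 1, 2 and 3) on the scale of log2(intensity + 16) minus the wild-type mean, for the 10 low-oxygen genes, with the range of the 3 wild-type arrays as a blue band. For AT1G33055 the mutant arrays lay at 1.85, 2.05 and 2.46, far outside a narrow band, whereas the wild-type band of HRA1 was the widest of the 10. AT3G27220, AT4G17260, PDC2 and AT5G66985 had mutant arrays on both sides of 0.

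The members also differed in their spread within a genotype. In the wild type HRA1, AT4G24110 and AT5G10040 had the largest log2 SDs of the 10, at 1.60, 0.79 and 0.70, and the lactate dehydrogenase gene, PDC2 and AT1G33055 the smallest, at 0.06, 0.13 and 0.16. In the mutant AT5G66985 and AT4G24110 varied least, with log2 SDs of 0.05 and 0.06. No member varied more in the mutant than AT3G27220, whose log2 SD there was 0.34.

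Other genes of the low-oxygen response were set beside these members from a list of 46 regulators, oxygen-sensing, fermentation and effector genes. Of the 46, 12 had a probe set that the annotation listed with that gene and no other. All 12 were listed as effector genes, so no regulator, oxygen-sensing or fermentation gene of that list had such a probe set. Probe sets without a single named gene were not assigned to genes, so the array may still hold data for the others. Of the 12, 1 rose and 0 fell at an adjusted p under 0.05 by limma, beside 0.919% of all probe sets in either direction. At an unadjusted p under 0.05 there were 5, all higher in the mutant, beside 14% of all probe sets in either direction. Estimates were higher in the mutant for 10 and lower for 2, with a median log2 difference of 0.53, beside 11262 higher and 11484 lower over all probe sets. The mutant arrays lay above the wild-type arrays in 6 of the 12 and below them in 0, beside 11.2% and 11% of all probe sets.

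The gene that rose was CML38, which encodes a calmodulin-like calcium sensor. Its intensity was 145, 290 and 233 in the wild type and 842, 1029 and 1068 in the mutant. The lowest mutant array was far above the highest wild-type array, and the log2 difference was 2.10 ± 0.29 (4.30-fold, adjusted p = 0.0432). CML38 lost the threshold without any one array (adjusted p = 0.0611 to 0.168) and with 1 added in place of 16 (adjusted p = 0.0697). On mutant replicate 1 alone it stood 1.90 above the wild-type mean.

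AT4G10270 had an estimate of like size, 2.15 ± 0.35, but did not pass (adjusted p = 0.0678). It did pass with 64 added in place of 16 (adjusted p = 0.0229), without the dimmest 30% of probe sets (0.0314) and with a robust prior and intensity trend (4.23e-06). It read 491, 310 and 585 in the wild type and 1407, 2475 and 2423 in the mutant. The 2 higher mutant values were on the arrays with the high 3′ to 5′ control ratios. AT1G05575 stood at 1.24 ± 0.41 (adjusted p = 0.270), with 0.55 on mutant replicate 1 and 1.45 and 1.73 on replicates 2 and 3. The log2 difference was 0.62 ± 0.20 for both AT5G27760 and AT4G33560, with adjusted p of 0.258 and 0.263. With the robust prior and intensity trend, AT5G27760 (adjusted p = 0.00329) and AT1G05575 (0.0194) passed and AT4G33560 (0.107) did not. That setting called 1459 probe sets against 209. For AT4G39675 it was 0.64 ± 0.27 (adjusted p = 0.368) and for AT5G44730 0.45 ± 0.30 (adjusted p = 0.552). AT3G03270, at -0.49, had a lower estimate than any of these 12 genes, whose lowest was AT1G74940 at -0.29. No test of one set against the other was made.

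**Figure D3:**
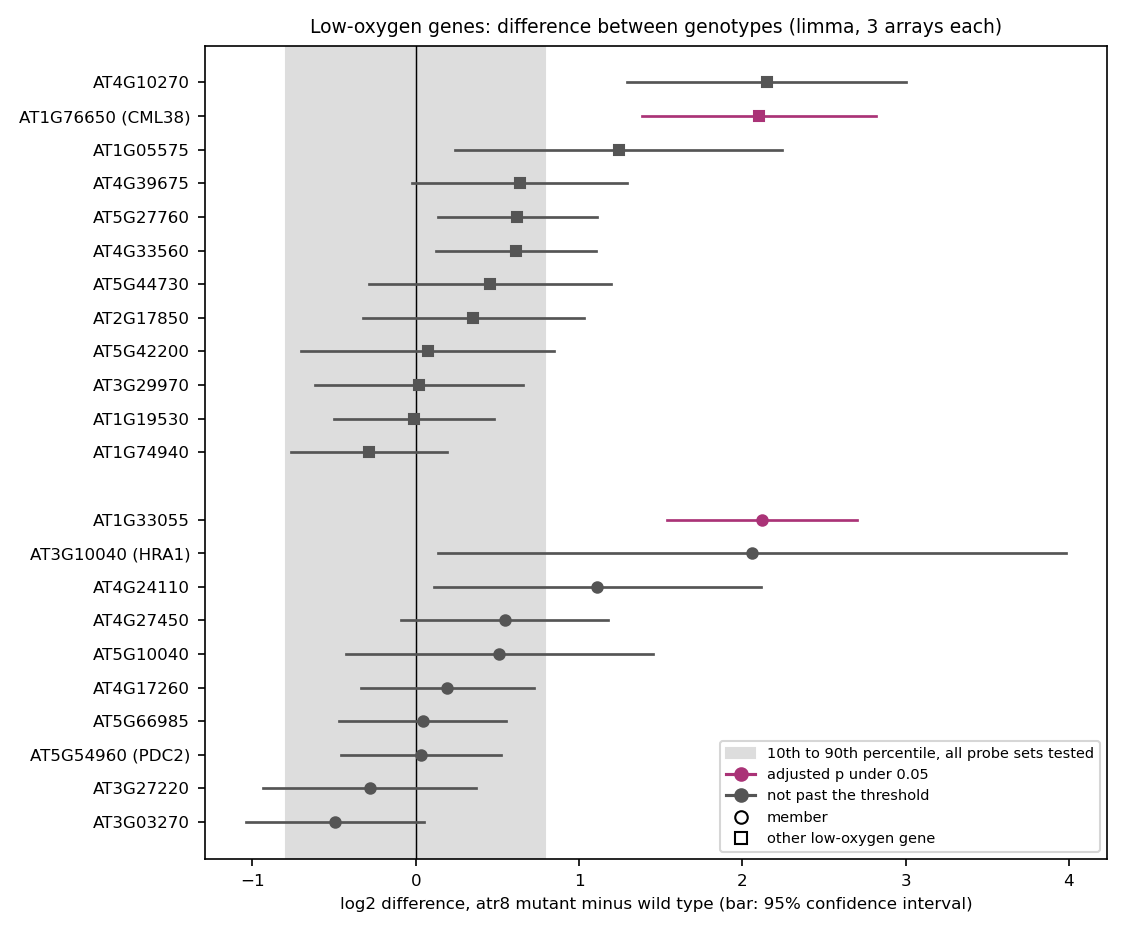
Log2 difference of mutant minus wild type with its 95% confidence interval (horizontal axis) for the 10 members (circles, lower block) and 12 other low-oxygen genes (squares, upper block), in purple where the adjusted p was under 0.05. The grey band marks the 10th to 90th percentile of all probe sets tested, from -0.80 to 0.79, and AT1G33055, CML38 and AT4G10270 lie above it with their whole intervals.

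The members do not lie next to each other in the genome. In the RefSeq order of protein-coding genes (assembly TAIR10.1), 0 of the 10 had another member as a direct neighbour. Of the 20 direct neighbours 12 had a probe set of their own, 0 of them were called by limma and 3 had an unadjusted p under 0.05, where these shares were 0.919% and 14% over all probe sets. These 3, singled out after their values were seen, were AT1G33050 beside AT1G33055, with a log2 difference of 1.44 ± 0.38 (adjusted p = 0.188), PORB beside AT4G27450, at -0.99 ± 0.19 (adjusted p = 0.0959), and AT3G10030 beside HRA1, at -0.45 ± 0.18 (adjusted p = 0.356). On the other side of AT1G33055, NAC014 stood at 0.22 ± 0.31 (adjusted p = 0.793).

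**Figure D4:**
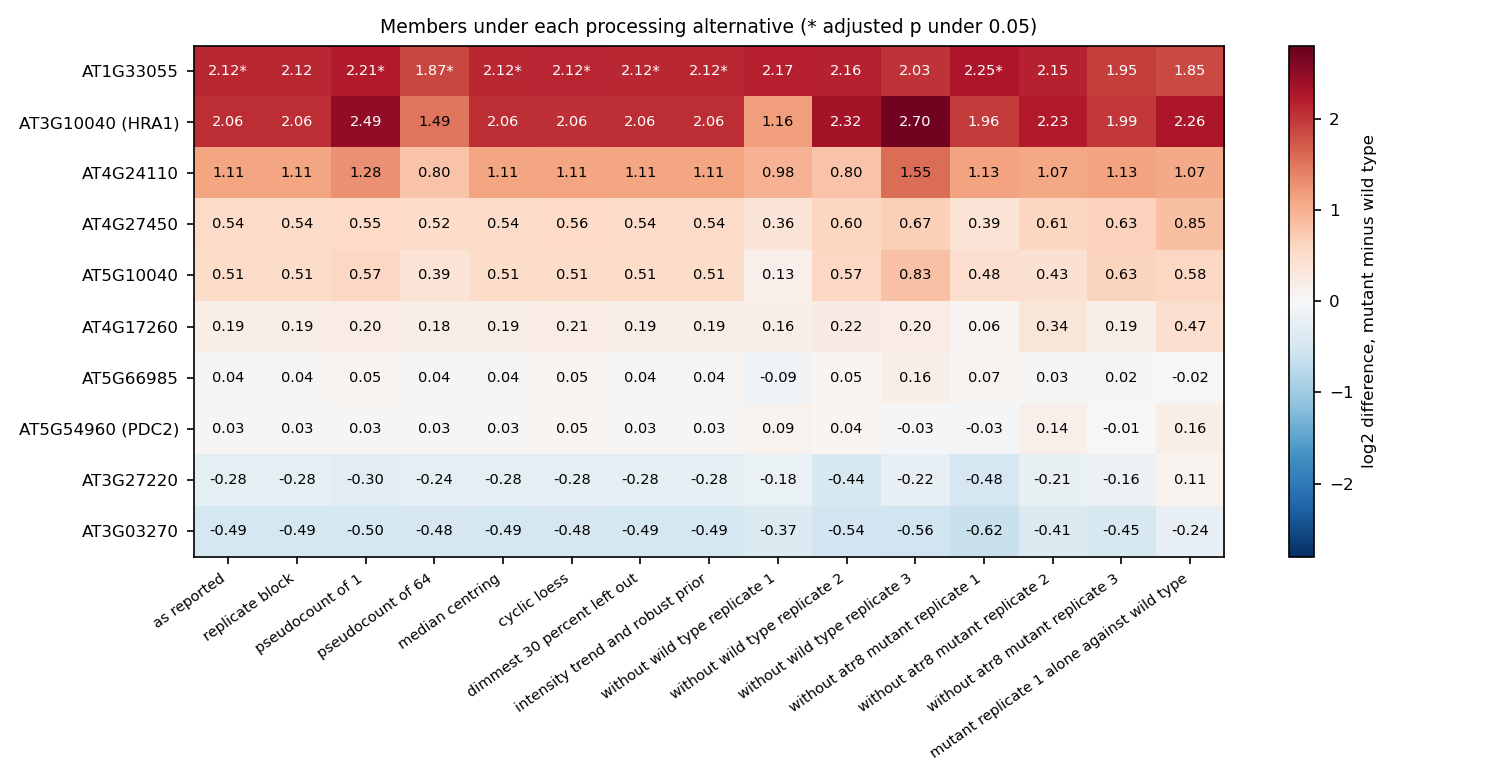
Log2 difference of mutant minus wild type (colour and printed value) of each of the 10 low-oxygen genes, in rows, under the reported setting and 14 processing alternatives, in columns, with an asterisk where the adjusted p was under 0.05. AT1G33055 stays between 1.85 and 2.25 and carries all asterisks, and PDC2 and AT5G66985 lie near 0 on both sides.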

How the data were processed

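The deposited values were probe set intensities on a linear scale from Affymetrix arrays, labelled with biotin per the labels' protocols. Sorted, all 6 columns were identical (largest gap 0), the mark of quantile normalization before deposit. Neither the labels nor the file header names the summarization software or background correction, and no detection calls were used. Of 22810 probe sets, 64 controls were left out and 22746 tested. In the annotation of the platform 13513 probe sets named 1 gene and 503 several. Of the former, 13436 matched a RefSeq locus.

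Log2(intensity + 16) was fitted on genotype with limma 3.58.1 (lmFit, eBayes) under R 4.3.3, two-sided, with Benjamini-Hochberg adjustment over all tested probe sets and a threshold of 0.05. Intervals are 95% intervals from the same fit. P-values weigh the difference between genotypes against the spread between arrays of the same genotype, which eBayes moderates over all probe sets.

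The members and lists were chosen with earlier results of these data known. The naming rule took every member, each other low-oxygen gene past the threshold and the 6 others with the smallest p, and the control probe sets. Each listed gene that had a probe set listed with that gene alone had only 1, so averaging probe sets could not be tried. Alternatives were the replicate block, pseudocounts of 1 and 64, median centring, cyclic loess, removal of the dimmest 30%, a robust prior with an intensity trend, each array left out, and mutant replicate 1 alone.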

Additional observations from a re-analysis of the deposited data

Results flagged for a closer look

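The actin control probe sets, which were not tested between genotypes, had a 3′ to 5′ ratio far above the wild-type arrays (2.17 to 2.66) on mutant replicate 2, at 28.9, and on mutant replicate 3, at 19.6. Of the 10 low-oxygen genes, 6 lay lower on both of these arrays than on mutant replicate 1 (HRA1, AT4G17260, PDC2, AT3G03270, AT4G27450 and AT3G27220) and 3 lay higher on both (AT1G33055, AT4G24110 and AT5G66985), beside 34.6% and 38.9% of all probe sets tested. The part of the high 3′ to 5′ ratios in these differences was not tested.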

How the results depend on the processing

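The counts of calls moved with most settings, and the cause was not tested. With the replicate block limma called 0 members, 0 other low-oxygen genes and 0 probe sets, with 3, 3 and 2769 at an unadjusted p under 0.05. The sample titles do not say whether arrays of the same number were paired. Deviations of same-numbered arrays correlated at only 0.014, 0.012 and 0.0045, although each array correlated best with its own number. Mutant replicate 1 alone against the wild type, where the lone array is assumed to vary like the wild type, also gave 0, 0 and 0 calls, with 1, 2 and 2194 at an unadjusted p under 0.05. The other low-oxygen genes called were 0 with 1 added, 2 with 64 added, 2 without the dimmest 30% of probe sets and 4 with a robust prior and intensity trend, where the probe sets called were 99, 336, 371 and 1459 against 209. AT1G33055 was the 1 member called in each of these 4 settings and under median centring and cyclic loess. Leaving out 1 array gave 0 to 1 members, 0 other low-oxygen genes (2 to 5 at an unadjusted p under 0.05), 0 to 314 probe sets, and a median member difference of 0.15 to 0.43.

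Of 140 values of single members under the alternatives, 127 kept their direction and side of the threshold, 7 values of AT1G33055 lost the threshold and 6 changed sign. With 1 array left out PDC2 ran from -0.034 to 0.14, below 0 without wild-type replicate 3 (-0.034), mutant replicate 1 (-0.031) or mutant replicate 3 (-0.0084). AT5G66985 ran from -0.088, without wild-type replicate 1, to 0.16. On mutant replicate 1 alone AT5G66985 changed to -0.015 and AT3G27220 to 0.11. With 3 arrays per genotype and no detection calls, differences of dim genes such as HRA1 in wild-type replicate 1 are poorly bounded.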
